A study of Mus musculus with 3 samples.

Results

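The 10 Notch pathway genes described here are 3 receptors (Notch1, Notch2, Notch3), 3 ligands (Dll1, Dll3, Jag1), the nuclear mediator Rbpj and 3 effectors (Hes1, Hes5, Hey1), out of 55450 genes in GENCODE M21, of which 21951 are protein-coding. They were chosen by name, and a ChIP peak was assigned to a gene when it overlapped the gene or the 5 kb upstream of it by at least 1 bp. The series comprised 3 ChIP-seq libraries from mouse cerebral cortex at E13.5: an input without antibody, NF-Y-ChIP with an antibody against the NF-YC subunit, and H3K4me3-ChIP. NF-Y is a ubiquitous trimeric transcription factor that binds the CCAAT box, and H3K4me3 is the histone mark of active promoters, so the comparison asked which Notch pathway promoters carried the mark and which were bound by NF-Y. Peak lists were used for NF-Y-ChIP (733 peaks) and H3K4me3-ChIP (18816 peaks). Whole cortical tissue was used, so the lists average over progenitors, newborn neurons and all other cells present, and the labels and the ChIP methods give no strain, genotype or number of pooled embryos. B6 embryos are named for the E13.5 cortices that the study used in Western blotting. Each antibody had 1 library. No replicate error and no p-value can therefore be given, and all statements below describe these lists.

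In the Notch pathway, a Delta-like or Jagged ligand on one cell binds a Notch receptor on its neighbour. The receptor is then cleaved, and its intracellular domain enters the nucleus, binds the DNA-binding protein Rbpj and turns a repressed target gene into an active one. The main targets are the Hes and Hey genes, which encode repressors of proneural genes. In the developing cortex, this exchange keeps radial glial progenitors undifferentiated next to cells that express Dll1 and become neurons.

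The promoter sequences below were picked to show a window with motif matches and a window without. Promoters were read from the RefSeq table for GRCm38.p6, in which 8 of the 10 genes matched (all but Hes1 and Hey1). The first sequence is the 250 bases before the start of Hes5 (chr4:154960673-154960922, plus strand), with its CCAAT boxes (CCAAT, or ATTGG on the opposite strand) and its matches to the core of the Rbpj site (GTGGGAA, or TTCCCAC) in capitals. The second is the 250 bases before the start of Notch3 (chr17:32166891-32167140, minus strand), which held neither motif. Neither window overlaps an exon of its gene.
Hes5: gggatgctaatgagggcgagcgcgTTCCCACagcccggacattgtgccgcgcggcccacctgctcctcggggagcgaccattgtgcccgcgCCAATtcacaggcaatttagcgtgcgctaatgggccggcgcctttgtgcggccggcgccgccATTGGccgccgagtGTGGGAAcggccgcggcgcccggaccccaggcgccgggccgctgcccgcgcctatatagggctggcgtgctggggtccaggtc
Notch3: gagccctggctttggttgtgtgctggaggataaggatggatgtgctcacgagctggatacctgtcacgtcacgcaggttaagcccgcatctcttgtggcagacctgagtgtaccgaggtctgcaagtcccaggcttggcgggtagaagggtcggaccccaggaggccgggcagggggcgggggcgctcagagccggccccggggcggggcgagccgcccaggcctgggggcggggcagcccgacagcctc

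The next sequences set CCAAT boxes of ligand genes, which had no NF-Y-ChIP peak, beside the boxes at the NF-Y-ChIP summits of 3 other Notch pathway genes. Each line holds 25 bases on the strand of the gene with the box in capitals. The lines for Dll1 (chr17:15376043-15376067 and chr17:15375839-15375863, both boxes of 1 RefSeq window) and Dll3 (chr7:28301931-28301955) come from RefSeq windows. Those for Maml1 (chr11:50292395-50292419), Hes6 (chr1:91413268-91413292) and Hey2 (chr10:30842910-30842934) come from the GRCm38 genome, and all 5 genes lie on the minus strand. The boxes of Maml1 and Hes6 fit the extended NF-Y consensus (CCAAT preceded by a pair of purines and followed by C or G and a purine), and those of Hey2, Dll1 and Dll3 do not. The extended consensus is also met without an NF-Y-ChIP peak, by the box nearer to the start in the Hes5 sequence above.
Dll1 (farther from the start): ctctcgccagATTGGggggctgctc
Dll1 (nearer to the start): ctcgcatggcATTGGctgaattctt
Dll3: ccgctttcagATTGGcgcatgcaat
Maml1: gtttcctttgATTGGctagagcttc
Hes6: ccacgcacagCCAATcggtgcattg
Hey2: tccatattaaCCAATagaaagccac

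H3K4me3-ChIP peaks were found at all 10 genes, against 65.4% of protein-coding genes (14352 of 21951). None of the 10 had an NF-Y-ChIP peak by the same rule, against 3.69% of protein-coding genes and 5.6% of those with H3K4me3. With shares this low, finding none among 10 genes does not set them apart. The 10 genes held 17 H3K4me3-ChIP peaks: 4 genes had 1 peak (Jag1, Rbpj, Hes5, Hey1), 5 had 2 and Notch2 had 3. The marked regions were wide rather than high. The bases under the peaks of a gene, its breadth, ranged from 2079 bp at Notch2 to 5667 bp at Dll1, with a median of 3756 bp. The median over the 14352 protein-coding genes with a peak was 1565 bp (quartiles 1115 and 2181 bp), and all 10 genes lay above it. Of the protein-coding genes with a peak, 5.14% exceeded the median of the 10. The widest single peak had a median of 3215 bp, against 1426.5 bp over the protein-coding genes with a peak. At 5 of the 10 genes (Dll1, Jag1, Rbpj, Hes5, Hey1) the widest peak was over 3 kb, as at 4.24% of the protein-coding genes with a peak.

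The fold enrichment was close to that of other marked genes. This value compares the ChIP signal at a summit with its local background, and for each gene the highest among its peaks was taken. It ranged from 23.3 at Dll3 to 59.2 at Notch2, with a median of 38.1 against 40.1 for the protein-coding genes with a peak (quartiles 25.5 and 53.0). Of the 10 genes, 4 lay above that median (Notch1, Notch2, Rbpj, Hey1). By breadth, 7 of the 10 were in the top 10% of protein-coding genes with a peak, and by fold enrichment 0 of the 10. Taken peak by peak, the median of the 17 peaks was 1612 bp in width and 33.9 in fold enrichment, against 1098 bp and 27.5 over all 18816 peaks.

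**Figure D1:**
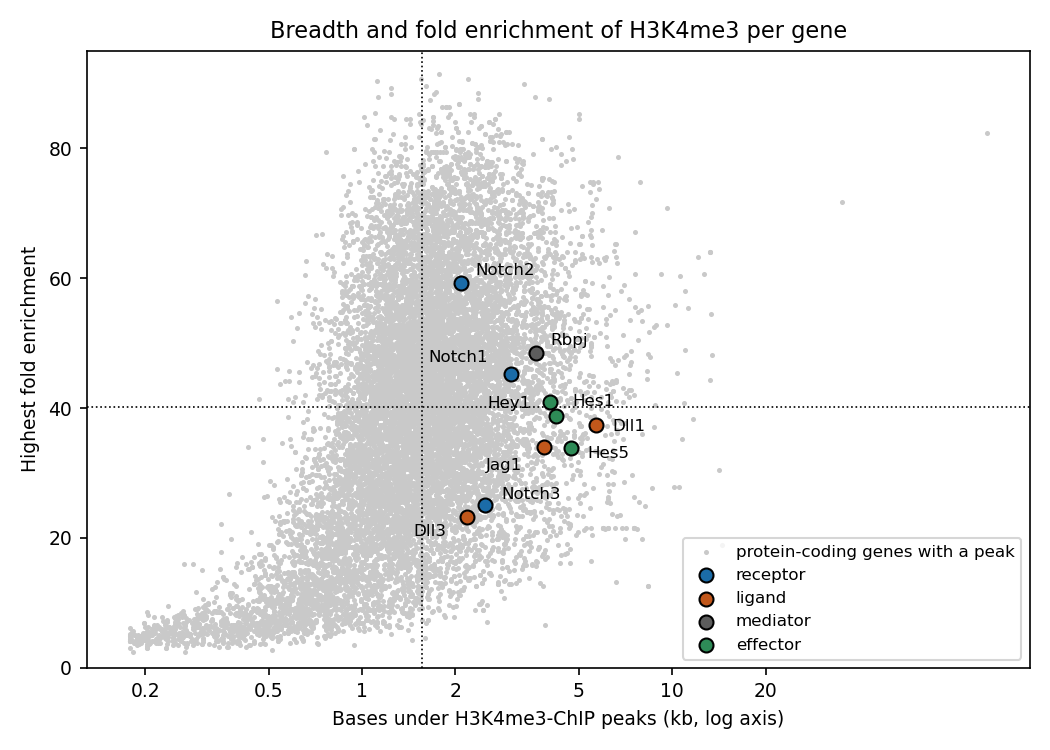
Breadth of H3K4me3 (bases under the peaks of a gene in kb, log axis) against the highest fold enrichment, for the 14352 protein-coding genes with a peak (grey) and the 10 Notch pathway genes (coloured by role); dotted lines mark the medians of the grey points. All 10 genes sit to the right of the vertical line at 1565 bp, and 4 of them sit above the horizontal line at 40.1.

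Positions below are given from the marked start of a gene, which is the annotated start of a coding transcript nearest to the summit of its strongest peak. The receptors had the smallest median breadth of the 4 roles, 2486 bp (2079 to 3027 bp). Notch1, the receptor with the largest breadth, had 2 peaks on chromosome 2 within its record of 26457903-26516663 (minus strand). The main peak (26501613-26504399, 2787 bp) had a fold enrichment of 45.2 and a −log10 q of 167. It covered an internal transcript start, from −577 to 2209 bp around it, and 75.8% of it was intronic. A peak of 240 bp and 4.26-fold lay 168 bp beyond it, wholly within annotated exon sequence but without coding bases. The 5′ end of the Notch1 gene record lies 12841 bp upstream of the marked start and was not under a peak.

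Notch2, on chromosome 3 (98013527-98150361, plus strand), had the highest fold enrichment of the 10 genes and the smallest breadth. Its first peak (98013080-98014601, 1522 bp, 59.2-fold) contained the start of the gene, with the summit 238 bp inside. Its others were intronic and far weaker, of 379 bp and 7.56-fold and of 178 bp and 4.46-fold. Their distances to the preceding peak were 113 and 159 bp, so that the 3 peaks form a chain from the start into the first 2 kb of the gene. By breadth, Notch2 exceeded 72.1% of the protein-coding genes with a peak, and by fold enrichment 84.0%.

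Notch3, the receptor known from vascular mural cells as well as from progenitors, is on chromosome 17 (32120820-32166852, minus strand). Its peak over the start (32165550-32167161, 1612 bp) had a fold enrichment of 22.9. A narrower peak within an intron (32162061-32162934, 874 bp), with its summit 4454 bp downstream of the start, had a fold enrichment of 25.0. Notch3 was the only one of the 10 genes in which the peak of highest fold enrichment held no annotated coding start and lay inside the gene body. It exceeded 82.0% of the protein-coding genes with a peak by breadth and 24.4% by fold enrichment.

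The ligands differed most among themselves in breadth, from 2186 to 5667 bp, and none of their fold enrichments reached the median of 40.1. Dll1, the ligand of differentiating progenitors, is on chromosome 17 (15367354-15376872, minus strand) and had the largest breadth of the 10 genes, above that of 98.8% of the protein-coding genes with a peak. Its main peak (15372605-15377201, 4597 bp, 37.4-fold) contained both annotated coding starts and extended to 3371 bp downstream of the marked start, which lies 896 bp inside the gene record. This peak also overlaps the long noncoding RNA gene A930024N18Rik on the other strand, and peaks carry no strand. The other peak of Dll1 (15380353-15381422, 1070 bp, 15.8-fold) was the only one of the 17 that lay wholly upstream of its gene, with the summit 4008 bp before the 5′ end. Its nearest edge is 3481 bp upstream, inside the limit of 5 kb, and the next peak is 18840 bp upstream, where the nearest start is that of Fam120b.

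Dll3, a divergent Delta-like protein that acts inside the cell and does not activate receptors in trans, is on chromosome 7 (28293553-28302238, minus strand). It had the lowest fold enrichment of the 10 genes. Its peak at the start (28301014-28302544, 1531 bp) had a fold enrichment of 23.3. A peak near the 3′ end (28294360-28295014, 655 bp, 9.08-fold) was 86.1% coding exon and is also within 5 kb upstream of the neighbour gene Selenov. The next peak outside the limit, 8865 bp upstream, is nearest to the start of Timm50.

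Jag1, the Jagged ligand, is on chromosome 2 (137081456-137116644, minus strand) and had 1 peak (137113773-137117641, 3869 bp, 33.9-fold). The peak reached from −997 to 2871 bp around the start, and its summit was 352 bp before the start. The summit of the strongest peak lay upstream of the marked start at Jag1 and Hes1 only, and downstream at the other 8 genes. No further peak was listed for 1139648 bp upstream of Jag1, the largest such distance of the 10 genes. At the others it was between 8865 bp (Dll3) and 198468 bp (Rbpj).

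Rbpj, the DNA-binding protein on which all Notch receptors converge, is on chromosome 5 (53466152-53657362, plus strand). Its single peak (53588649-53592291, 3643 bp) had a fold enrichment of 48.5 and, at 205, the highest −log10 q of the 17 peaks. The summit was 125000 bp from the 5′ end of the gene record, which was not under a peak, and 171 bp downstream of an internal transcript start. The peak contained 4 of the 6 annotated coding starts. Rbpj and Notch1 were therefore the 2 genes whose record begins far upstream of the marked promoter. The 5′ end of the record was under a peak at the other 8 genes, and at 82.5% of the protein-coding genes with a peak.

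The effectors had the largest median breadth of the 4 roles, 4220 bp, with a range of 4030 to 4702 bp. The breadths of Hes1, Hes5 and Hey1 did not overlap with those of Notch1, Notch2 and Notch3 when whole peaks were counted, as they were throughout. This sets 3 genes against 3 without a test, and it did not hold for effectors in general. Among the other effectors described below, Hes7 (4791 bp) lay above the receptor range of 2079 to 3027 bp. Hes6 (3025 bp) and Hes3 (2448 bp) lay within that range, and Hey2 (1833 bp) and Heyl (437 bp) lay below it. Hes1, the repressor with oscillating expression in progenitors, is on chromosome 16 (30064384-30067796, plus strand). It had a pair of peaks of similar size, 1964 bp with 38.7-fold (30063099-30065062) and 2256 bp with 36.1-fold (30065316-30067571). A gap of 253 bp (30065063-30065315) separated them. The marked start of Hes1 (30065340) lay in the second peak, 24 bases from its edge, so that most of the 250 bases before this start fell into the gap. Of the upstream peak, 65.4% lay before the gene record.

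Hes5, the effector most closely tied to Notch activity in neural progenitors, is a gene of 1449 bp on chromosome 4 (154960923-154962371, plus strand). Its peak (154960508-154965209, 4702 bp, 33.9-fold) was the widest of the 17. However, the summit was 3750 bp downstream of the Hes5 start and 540 bp from a start of the next gene, Pank4, whose coding start the peak also contained. Of the peak, 60.4% lay beyond the 3′ end of Hes5, and 1864 bp lay in Hes5 and its 5 kb upstream. Counted by these bases alone, Hes5 would lie below the 3 receptors. The mark of the 2 genes cannot be told apart in this peak, and its breadth and fold enrichment belong to both. It was the only one of the 17 peaks with a coding start of another gene inside.

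Hey1, a related repressor, is on chromosome 3 (8663359-8667256, minus strand). Its peak (8664327-8668356, 4030 bp, 40.9-fold) contained the start and most of the gene, with the summit 453 bp downstream of the start. Together with Jag1, Rbpj and Dll1, and apart from Hes5, it belongs to the genes with an uninterrupted peak of over 3 kb around their own start.

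**Figure D2:**
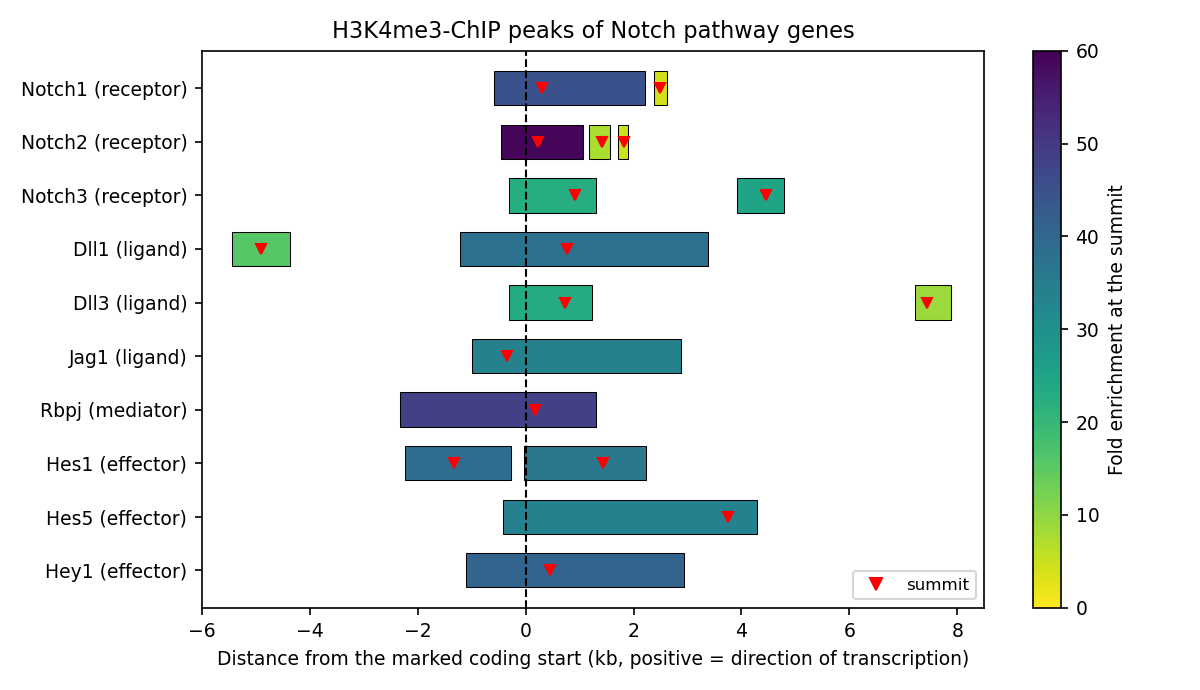
H3K4me3-ChIP peaks of the 10 genes by distance in kb from the marked coding start (dashed line), with transcription to the right; boxes are peaks coloured by fold enrichment and red triangles are summits. All 10 starts lie under a peak, the 4 single-peak genes have boxes of 3643 to 4702 bp, and the Hes5 summit lies 3750 bp downstream, toward Pank4.

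NF-Y-ChIP gave no peak inside or within 5 kb upstream of any of the 10 genes. The nearest summit to a marked start was at a distance of 122 kb (Dll3, nearest to Dyrk1b, 8.49-fold), 126 kb (Hes5, nearest to Morn1, 5.25-fold) and −184 kb (Notch3, nearest to Akap8l, 8.02-fold), where a minus sign means upstream. At the other 7 genes it was farther, from 957 kb at Notch1 to −8141 kb at Rbpj. The median distance was 1264 kb, against 676 kb for 14279 marked coding starts. The list holds only peaks past the authors' threshold and no read counts, so no limit can be set on binding below that threshold.

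CCAAT boxes were counted in the reference sequence under the H3K4me3-ChIP peaks. The 17 peaks held 39 boxes in 35909 bp, or 1.09 per kb, against 1.17 per kb in all 18816 peaks and 2.20 per kb in the 667 peaks that overlapped an NF-Y-ChIP peak. The boxes were unevenly spread. Hey1 had 11 boxes (2.73 per kb), Dll1 7, Hes5 5 and Notch1 4, and the remaining 6 genes had 1 to 3. Dll3 (0.457 per kb) and Hes1 (0.474 per kb) had the lowest densities. Of the 17 peaks, 5 held no box, among them the peak at the Notch3 start, and 7 held at least 2. Of all peaks with at least 2 boxes, 8.32% overlapped an NF-Y-ChIP peak. The extended consensus was matched once at Rbpj and once at Hes5, or 0.0557 per kb, against 0.176 per kb in all 18816 peaks.

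The promoters were compared in windows of 300 bp, from 250 bp before to 50 bp from a start. At the 5′ end of the gene record, 4 of the 10 genes (Notch1, Jag1, Hes5, Hey1) had a CCAAT box, against 39% of protein-coding genes. Since this end lay far from the mark at Notch1 and Rbpj, the marked start was also used, a choice made after seeing the data. There, 5 of the 10 genes had a box (Dll1, Jag1, Hes1, Hes5, Hey1), against 34.9% of 14283 such starts. The 3 receptors, Dll3 and Rbpj had none. Of the Dll1 boxes printed above, the one farther from the RefSeq start is in this window, whereas the printed Dll3 box precedes a RefSeq start farther inside the gene.

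At the marked starts, repeated boxes occurred at the effectors, a count over 10 sequences with no test. At least 2 CCAAT boxes were present at Hes1 (3 boxes), Hes5 (2) and Hey1 (2) and at none of the other 7 genes, against 12% of marked coding starts. At the 5′ ends of the gene records they were present at Hes5 and Hey1 (12.7% of protein-coding genes). The count depends on the start, since the RefSeq window of Dll1 printed from above also held 2 boxes. The boxes began at −175, −147 and −98 bp at Hes1, at −159 and −97 bp at Hes5, and at −203 and −107 bp at Hey1. Single boxes began at −81 bp at Dll1 and at −179 bp at Jag1. The extended consensus was matched by 3 boxes of Hes1 and 1 of Hes5, so at 2 of the 10 genes, against 13.3% of marked coding starts. All 3 Hes1 boxes fell into the gap between its H3K4me3-ChIP peaks and were not counted in the density above.

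The core of the Rbpj site (GTGGGAA) was found at the marked starts of the same 3 genes and no other of the 10, against 5.7% of marked coding starts. It began at −81 bp at Hes1, at −226 and −83 bp at Hes5 and at −175 bp at Hey1. Both motifs in the same window occurred at 3 of the 10 genes and at 1.98% of marked coding starts. Among 51 other Notch pathway genes with a peak, described below, the marked starts held GTGGGAA at 7 and both motifs at 3. At least 2 CCAAT boxes were present at 6 of these 51. In Hes1 and Hes5, a CCAAT box on the opposite strand (at −98 and −97 bp) was followed by a GTGGGAA on the strand of the gene (at −81 and −83 bp). The share of all marked coding starts with this arrangement was not counted. With the 5′ ends of the gene records, GTGGGAA was found at Notch1, Hes5 and Hey1 (6.07% of protein-coding genes), and both motifs occurred in the same 3 genes (2.45%). A match of letters is a description of the sequence and not a bound site.

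The N box (CACNAG, or CTNGTG), to which Hes proteins bind, had a different distribution. It was present at the marked starts of 6 of the 10 genes, against 39.1% of marked coding starts, and at the 5′ ends of 8, against 42.2% of protein-coding genes. Hes1 had 4 matches, Notch1 and Dll3 had 3, Notch3 2, and Notch2 and Hey1 1. Hes5, Dll1, Jag1 and Rbpj had none.

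**Figure D3:**
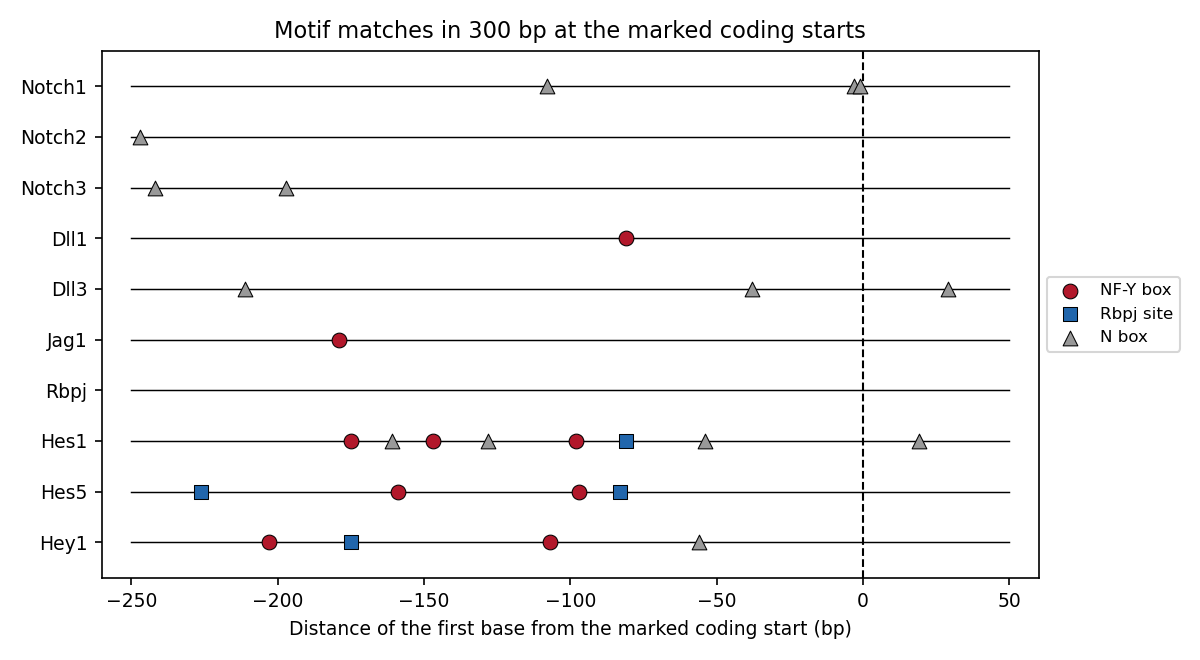
Positions of the CCAAT box (NF-Y box), GTGGGAA (Rbpj site) and CACNAG (N box) in the 300 bp windows at the marked coding starts of the 10 genes, in bp from the start (dashed line); each symbol is a match on either strand at its first base. Circles and squares occur together at Hes1, Hes5 and Hey1, and the Rbpj window holds no match.

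Across all marked coding starts, those with at least 2 CCAAT boxes had an NF-Y-ChIP peak by the rule in 23.2% of cases (397 of 1710), and those without a box in 2.28% of 9297. Hes1, Hes5 and Hey1 thus belong to the larger share of starts that had at least 2 boxes and no NF-Y-ChIP peak. The windows of the 10 genes were rich in GC, with a median of 70% against 63% over marked coding starts, and had a CpG observed-to-expected ratio of 0.859 against 0.784. The GC content ranged from 57.7% at Hes1 and 59.7% at Dll3 to 83% at Hey1 and 85.3% at Rbpj. Dll3 also had the lowest CpG ratio (0.452).

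The rest of the pathway, 52 genes in 8 roles, was measured in the same way. H3K4me3-ChIP peaks were present at 51, and Hes2 had none. Their median breadth was 1881 bp (437 to 6415 bp), and 34 of the 52 lay above the median of protein-coding genes with a peak, where the first 10 genes all did. Their median of the highest fold enrichment was 41.0, and 27 lay above 40.1. The receptor and ligands missing from the first 10 (Notch4, Dll4, Jag2 and the noncanonical ligand Dlk1) had breadths of 1511 to 1856 bp, below those of all 3 receptors and 3 ligands above. Their highest fold enrichments were 39.7 at Notch4, 20.6 at Jag2, 14.6 at Dlk1 and 11.8 at Dll4. The largest breadths were at Maml3 (6415 bp in 6 peaks), a co-activator of the Notch complex, Tle1 (5211 bp), a co-repressor that acts with Hes proteins, and Lfng (5122 bp), a glycosyltransferase that modifies Notch. The highest fold enrichments were at Ncor1 (78.0), a co-repressor, Adam10 (75.7), the protease of the first cleavage, and Fbxw7 (74.8), which marks the intracellular domain for degradation.

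**Figure D4:**
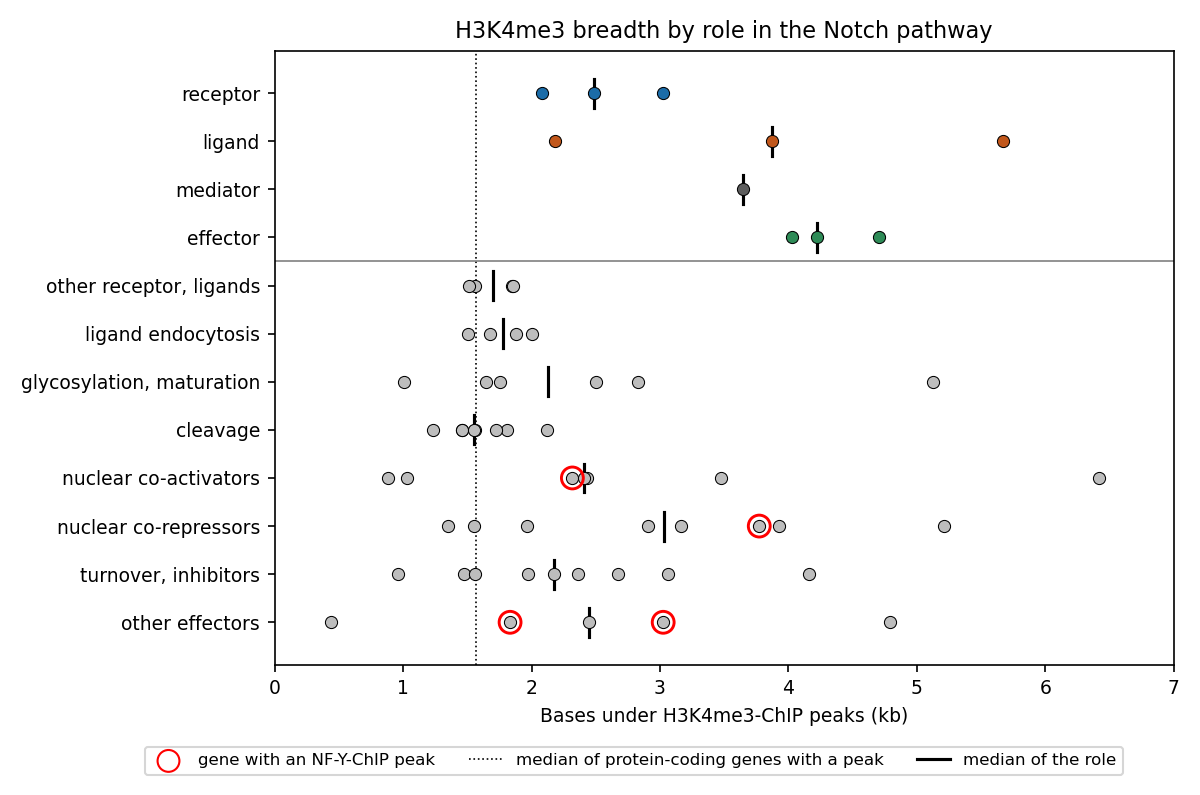
Breadth of H3K4me3 in kb per gene (points) by role in the Notch pathway, with the median of each role (bar), for the 10 genes (above the grey line) and 51 of the 52 other pathway genes; Hes2 had no peak and is not drawn. The effectors among the 10 genes lie between 4030 and 4702 bp, the latter from the Hes5 peak shared with Pank4. The other effectors drawn lie between 437 and 4791 bp. The 4 genes circled in red are those with an NF-Y-ChIP peak, none of them among the 10.

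NF-Y-ChIP peaks were found at 4 of the 52 other genes (7.69%, Wilson 95% interval 3.03 to 18.2%, which covers counting error only), against 3.69% of protein-coding genes and 5.6% of those with H3K4me3. Of these, 2 are effectors of the same family as Hes1 and Hey1. At Hes6, which counteracts Hes1, the peak (chr1:91413162-91413426, 7.90-fold, rank 248 of 733 by fold enrichment) had its summit 50 bp before the nearest Hes6 start. At Hey2 (chr10:30842871-30843054, 6.75-fold, rank 362) the summit was 121 bp before the start. At the co-activator Maml1 (chr11:50292285-50292487, 7.83-fold, rank 258) it was 79 bp before the start. These 3 peaks overlapped H3K4me3-ChIP peaks, and the box nearest to each summit is printed above. Within 50 bp of the summit, Maml1 and Hes6 had 1 box and Hey2 had 2. The peak at the co-repressor Tle4 (chr19:14598195-14598365) was weak and is lost at a q-value under 0.05, which leaves 3 of the 52 genes. It was listed at 3.02-fold, rank 722 and a −log10 q of 0.046, with no CCAAT box within 50 bp of its summit and no overlap with H3K4me3. Among the remaining effectors, Hes3 had a breadth of 2448 bp, Hes7 4791 bp and Heyl 437 bp. None of these had an NF-Y-ChIP peak by the rule.

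The tissue label was checked by the marks at marker genes, of which 65.4% would carry a peak at the share of all protein-coding genes. H3K4me3-ChIP peaks were present at 9 of 9 genes of dorsal telencephalon and cortex, with a median breadth of 6483 bp and fold enrichments from 4.61 to 60.7. They were present at 1 of 5 endothelial genes (Kdr, and not Cdh5, Pecam1, Tie1 or Tek), at 2 of 4 genes of microglia and macrophages, at 1 of 3 erythroid genes and at 2 of 4 genes of liver and muscle. These lists are short, and a peak at 2 of 4 genes is near that share. Notch receptors, Jag1 and Hey1 are also used by blood vessels, and how much such cells contributed to their marks was not tested.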

How the data were processed

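The peaks of the H3K4me3-ChIP and NF-Y-ChIP libraries of mouse cortex were analysed, and the input, for which no list was used, was not. The submitters' processing notes name FastQC, Bowtie2 2.2.8, MACS2 2.1.2 and GRCm38. The study's methods add Trimmomatic and Samtools and give the thresholds of peak calling, which were set on the q-value (0.05) for H3K4me3-ChIP and on the p-value (0.001) for NF-Y-ChIP. The study took the input as its negative control, and its account of peak calling names no control. Lists were assigned to antibodies by these thresholds, since the score that the authors deposited follows the −log10 p in one list and the −log10 q in the other. The deposited fold enrichment is a ratio of signal to local background, and the deposited −log10 p-value and −log10 q-value are those of MACS2. The H3K4me3-ChIP list holds fewer regions than the study describes, and regions outside it were not analysed here. The lists contain no read counts, so depth is unknown, and a deeper library might add peaks or widen them.

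Genes and starts were those of GENCODE M21. For each gene, peaks inside it or within 5 kb upstream (overlap from 1 bp) were counted and their whole widths summed. Values were set beside all 21951 protein-coding genes. The marked coding start is the coding-transcript start nearest to the summit of the strongest H3K4me3-ChIP peak. Positions are 1-based, and motif positions give the first base on the strand of the gene, with 0 at the start. The study's own rule for target genes was followed. Genes named were the 10 members and, of the 52 other pathway genes, those with an NF-Y-ChIP peak, those without H3K4me3, the 3 largest breadths and the 3 highest fold enrichments. Genes named outside this rule (Notch4, Dll4, Jag2, Dlk1, Hes3, Hes7, Heyl, the neighbour genes, and Kdr, Cdh5, Pecam1, Tie1 and Tek of the marker lists) were chosen after their values were seen. The members and lists were chosen with earlier results of these data known. Alternatives covered peak strength, assignment distance, start, window and motif. Tested on simulated data, the code assigned 1000 of 1000 regions correctly and found 600 of 600 added motifs. The analysis used Python 3.11.15, NumPy 2.4.6, pandas 2.3.3, SciPy 1.17.1, pysam 0.24.0 and matplotlib 3.10.9.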

Additional observations from a re-analysis of the deposited data

How the results depend on the processing

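Of the 6 alternative rules for NF-Y-ChIP, 5 narrow the list or the region and so say little about a count of 0, and the wider one, 50 kb upstream, also gave 0 of the 10 genes (6.61% of protein-coding genes). The 10 genes with H3K4me3 became 8 with the stronger 50% of peaks (without Notch3 and Dll3) and 9 when the summit had to lie in the region (without Hes5). The median breadth stayed between 3215 and 3949.5 bp. With only bases inside each gene or its 5 kb upstream, an alternative chosen after seeing the data, the median breadth was 3335 bp, and that of Hes5 fell from 4702 to 1864 bp. The number of H3K4me3-ChIP peaks fell from 17 to 9 with the stronger 50% of peaks, and other pathway genes with NF-Y-ChIP rose from 4 to 7 of 52 within 50 kb upstream. The count of genes with a promoter CCAAT box depended on the window. Instead of 4 it was 1 in the 100 bp before the 5′ end (21% of protein-coding genes), 10 from 1000 bp before to 50 bp after (78.4%), 9 over the 5′ ends of all transcripts (61.8%) and 1 with the extended consensus (12%). The extended consensus also lowered the density of boxes in peaks from 1.09 to 0.0557 per kb. With marked coding starts, added after seeing the data, the count was 5. Of the 94 other alternative values of single genes that still had a peak, 93 stayed within 1.5 times; the breadth of Notch3 moved from 2486 to 1612 bp when a peak had to lie within 1 kb of a transcript start. No paired analysis was possible because each antibody had 1 library and no test was made. Depth is unknown, so weak peaks may be missing from either list.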
